A study of Gallus gallus with 12 samples.

Results

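Expression in whole chick lung at embryonic day (E) 16 was compared with that at E15, using the 3 arrays of each stage, 6 of the 12 arrays of a series that also covers E14 and E18. All embryos were white leghorn, from timed fertilized eggs, without treatment. Labelled cDNA made from total RNA of the whole lung was hybridized to a custom NimbleGen array, 1 array per sample. The arrays were chosen by their stage label alone. Neither the labels nor the methods say whether a sample was 1 embryo or a pool. The p-values therefore rest on the spread between samples, which may not be that between embryos. The comparison covered 21390 Ensembl transcripts, each with 1 log2 value per array, and left out 1 control of random sequence. The deposited values carry no gene names and the gene table used here matched 0 of the identifiers, so transcripts are given by identifier and no list of lung, vascular or other marker genes was applied. The tissue could thus not be checked against its defining markers.

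The gas exchange airways of the bird lung are the parabronchi, long tubes that run through the organ in place of the dead-ended alveoli of mammals. At the stages compared here their walls bud into atria, the atria give rise to infundibula, and from these the air capillaries later grow out and interlace with blood capillaries. The air and blood sides are separated by a thin barrier with a shared basement membrane, of which type IV collagen is the main structural protein. The comparison asks which transcripts change over 1 day of this programme, part of the study's wider question of gene expression during formation of the barrier. In RNA of a whole lung, fewer cells of a type and less RNA per cell cannot be told apart.

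Medians of the 6 arrays lay between 10.64 and 10.74, with the random control at 4.61 to 5.14. E15 replicate 3 stood apart from the other arrays of its stage. Its Pearson correlation across transcripts, which are not independent replicates, was 0.922 with E15 replicate 1 and 0.92 with E15 replicate 2, whereas those 2 arrays reached 0.987 with each other. Its highest correlation among the 6 was 0.969, with E16 replicate 1. The SD of its values was 2.44, E16 replicate 1 was next at 2.51, and the other 4 arrays lay between 2.59 and 2.62. The E16 arrays correlated at 0.96 to 0.974 with each other. The median SD of a transcript was 0.216 over the 3 arrays at E15, 0.113 over E15 replicates 1 and 2, and 0.168 at E16. An SD over 2 arrays tends to have a smaller median than an SD over 3, so the 0.113 is not directly comparable with the others. At E18 the median SD was 0.528, and the E18 arrays share the estimate of spread in the fit reported first. The main results are therefore given with and without E15 replicate 3, and the count of calls also without E18.

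Of all transcripts, 1 was called between E15 and E16 by limma (0.00468% of 21390) at a Benjamini-Hochberg adjusted p of at most 0.05, with a mean per stage fitted to all 12 arrays. It was higher at E16. When E15 replicate 3 was left out limma called 0 transcripts, and the smallest adjusted p was 0.173. With an unadjusted limma p under 0.05 there were 860 transcripts (4.02%), 573 higher at E16 (2.68%) and 287 lower (1.34%). Leaving that array out gave 806 (3.77%), 383 higher (1.79%) and 423 lower (1.98%). Both totals were below the share that a limit of 0.05 passes on average when no transcript differs. Both fits share the spread of E18. Without E18 the total was 2214, and with the 6 arrays of E15 and E16 alone it was 1740, both above that share. Whether such a list exceeds that share thus depends on the arrays fitted, and a place in it alone is not read as a stage difference. From the fit of all 12 arrays to that without E15 replicate 3, the share of higher transcripts among those with such a p went from 66.6% to 47.5%. On this measure the balance of directions thus changed with that array. Among transcripts with arrays that did not overlap and means at least 1 unit apart, 67.4% were higher with it and 69.8% without it. Without the limit of 1 unit there were 1672 higher and 1553 lower with it, and 2753 and 4341 without it, so that most were then lower. Of the 573 higher transcripts 335 (58.5%) also had an unadjusted limma p under 0.05 without E15 replicate 3. Of the 287 lower ones 216 (75.3%) did.

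The transcript called, ENSGALT00000040487, was at 12.33, 12.19 and 12.12 on the E15 arrays and at 14.54, 14.38 and 14.21 on the E16 arrays. Every E16 array was above every E15 array, by 1.89 log2 units at the closest. The mean rose from 12.21 ± 0.11 (SD, n = 3) to 14.38 ± 0.16 (SD, n = 3), by 2.17 log2 units or 4.49-fold (standard error 0.20, adjusted p = 0.0174 by limma). An exact permutation test of 3 arrays against 3 gave a two-sided p of 0.1, the smallest this design allows. Every transcript whose E15 and E16 arrays did not overlap gives this p, 7.82% of all being higher and 7.26% lower at E16. The transcript was chosen by its low limma p, so the permutation test adds no support. At E14 the values were 12.34, 11.56 and 11.69, 1 of them above all E15 arrays. At E18 they were 14.64, 14.71 and 14.82, all above the E16 arrays. The 2 stages before and the 2 stages after the step thus did not overlap. With E15 replicate 3 left out the difference was 2.12 (standard error 0.23), and its adjusted p by limma was 0.173. With 1 other array left out the adjusted p ran from 0.00193 to 0.184, and it was above 0.05 without E14 replicate 3, E15 replicate 1 or 2, or E16 replicate 1 or 2. The difference itself stayed between 2.09 and 2.25.

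ENSGALT00000014676, second by p among the transcripts higher at E16, differed from the first in being dim. It read 5.83, 5.96 and 5.95 on the E15 arrays, where the random control was between 4.71 and 5.13. On the E16 arrays it read 8.11, 8.85 and 8.50. The arrays of the stages were 2.15 units apart at the closest, and the means differed by 2.57 (adjusted p = 0.106 by limma, standard error 0.31). The E14 arrays were at 5.55, 5.55 and 5.61, below every E15 array, and the E18 arrays at 8.18, 7.45 and 8.86, from below to just above the range of E16. Leaving out E15 replicate 3 moved the difference only to 2.59, with an adjusted p of 0.275 by limma. With any 1 of the 12 arrays left out the adjusted p ran from 0.0209 to 0.512 by limma. In the fit without E18 its adjusted p was 0.0123, the smallest of all transcripts there.

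The 2 transcripts with the lowest p among those lower at E16 were both bright at E15. ENSGALT00000015643 was at 13.59, 13.50 and 13.59 on the E15 arrays and at 12.74, 12.60 and 12.89 on the E16 arrays, which did not overlap. Its difference was -0.82 (standard error 0.13, adjusted p = 0.172 by limma), and it lay at 12.00, 12.18 and 11.86 at E18, below all E16 arrays. Its E14 arrays, at 13.53, 13.47 and 13.71, were on both sides of the E15 values. ENSGALT00000026050 was at 14.27, 14.57 and 14.27 at E15 and at 12.22, 11.54 and 13.09 at E16, where the 3 arrays differed more than at E15. Its difference of -2.09 (standard error 0.34, adjusted p = 0.172 by limma) ranked 3 by size among the transcripts with a lower mean at E16. At E18 it was lower still, at 9.74, 10.19 and 9.40, and at E14 it was at 14.60, 14.54 and 14.74. If E15 replicate 3 was omitted, the differences of the pair were -0.80 and -2.14. Neither passed 0.05 in that setting, with adjusted p of 0.489 and 0.481 by limma, and neither passed with all arrays. With any 1 of the 12 arrays left out, the adjusted p by limma ran from 0.0678 to 0.67 for ENSGALT00000015643. For ENSGALT00000026050 it ran from 0.0367 to 0.784.

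**Figure D1:**
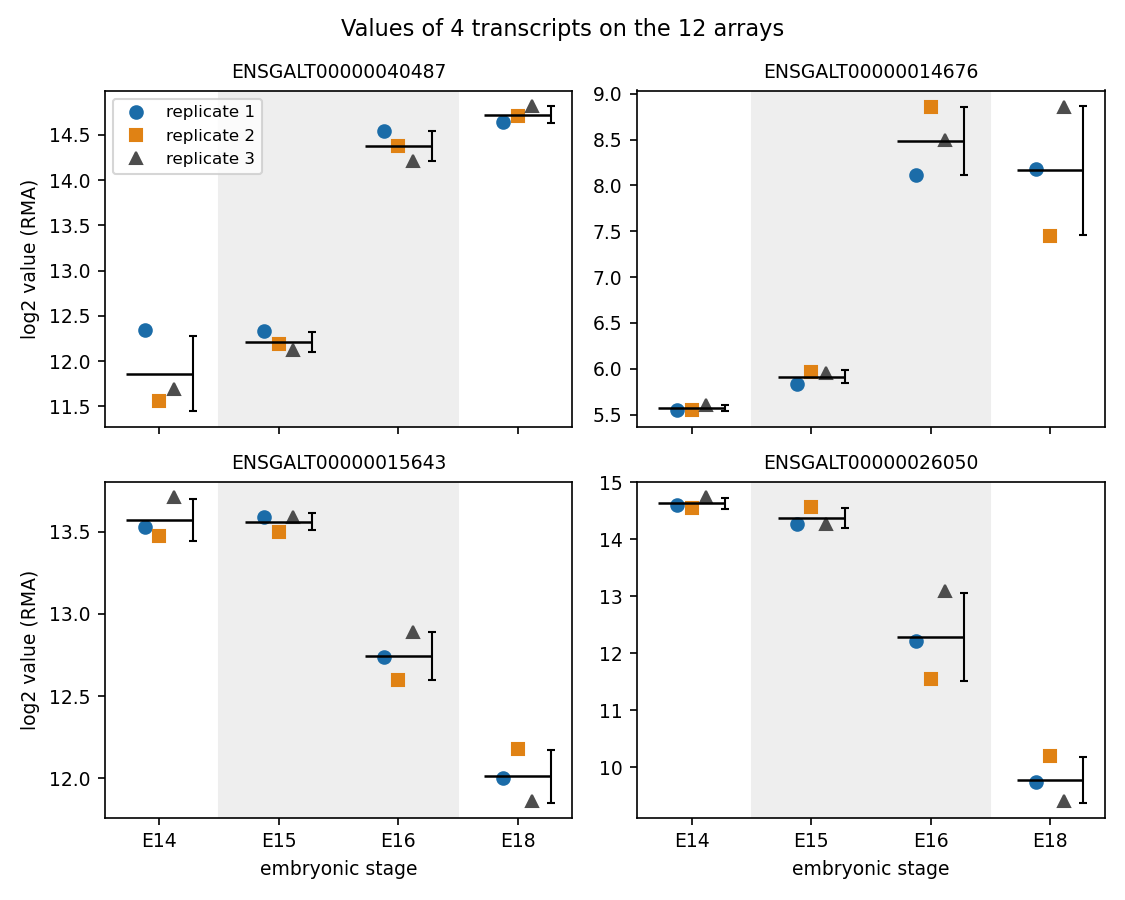
Log2 values of 4 transcripts on the 12 arrays, by embryonic stage, with the replicate number as colour and shape; horizontal lines are stage means and bars 1 SD of the 3 arrays, and the shaded stages are those compared. In each panel the E15 and E16 arrays do not overlap, and E15 replicate 3 lies with the other E15 arrays, between 12.12 and 12.33 in the first panel.

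The 15 transcripts with the lowest p in each direction showed the range of sizes. The 15 higher ones differed by 0.76 to 4.75 log2 units, with standard errors between 0.12 and 0.65 and adjusted p from 0.0174 to 0.172 by limma. The 15 lower ones differed by -2.66 to -0.68, with adjusted p from 0.172 to 0.306 by limma. In all 30, the arrays of E15 and E16 did not overlap, which a low p favours. With E15 replicate 3 left out, the adjusted p by limma ran from 0.173 to 0.499 for the 15 higher ones and from 0.275 to 0.721 for the 15 lower ones. With all arrays, the largest difference belonged to a transcript at 6.97, 6.52 and 5.27 on the E15 arrays and at 11.26, 11.37 and 10.37 on the E16 arrays. It was the only transcript under 7 on all E15 arrays and over 9 on all E16 arrays, limits set after the values were seen, and 0 transcripts went the opposite way. It read 6.20 to 6.77 at E14 and 9.60 to 12.18 at E18. Its difference was 4.75 with all arrays and 4.25 without E15 replicate 3. In the latter setting it ranked 20 by size over all transcripts, where the largest was 6.36. Among those with arrays that did not overlap it ranked 2. Another transcript, at 7.05 to 8.04 at E15 and 10.24 to 12.28 at E16, differed by 3.71, and one more differed by 3.62. These 3 were the largest among transcripts higher at E16 whose E15 and E16 arrays did not overlap, so that trait follows from the choice. Over all transcripts they ranked 1, 3 and 4 by size with all arrays.

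Over all transcripts the median difference between the stages was -0.017 log2 units, and -0.035 without E15 replicate 3. The means differed by at least 1 unit for 324 transcripts in the direction of E16 and for 110 in the direction of E15. By at least 2 units there were 66 and 4. Large differences of the means were therefore more often higher than lower at E16. Without E15 replicate 3 the numbers were 585 and 173 at 1 unit, and 149 and 5 at 2 units. These counts do not require that the arrays of the stages be apart, so they include transcripts split within a stage. A set of 25 in 2 separate states, described below, had a median difference of 2.37, and of 4.95 without E15 replicate 3. On 1672 transcripts (7.82%) all E16 arrays were above all E15 arrays, and on 1553 (7.26%) all were below. Leaving out E15 replicate 3, which makes the requirement easier to meet, gave 2753 (12.9%) and 4341 (20.3%).

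The fit depended on which stages shared the spread. With the 9 arrays of E14, E15 and E16, limma called 12 transcripts (0.0561%), 9 higher at E16 by 0.78 units or more and 3 lower, with differences from -2.66 to -1.05. The transcript called in the fit of 12 arrays was among them (adjusted p = 0.0475 by limma). All 12 had an unadjusted limma p under 0.05 in that fit, which uses the same E15 and E16 arrays and is not separate support. Of the 9 higher ones only that transcript was called there. The adjusted p of the 3 lower ones ran from 0.172 to 0.943 by limma in that fit. With 1 of the 9 arrays left out, the number ran from 0 without E14 replicate 2, E15 replicate 1 or E15 replicate 2 to 12 without E16 replicate 3, and 3 of these last 12 were among the first. It was 2 without E15 replicate 3, 1 without E16 replicate 1 or 2, 4 without E14 replicate 1 and 3 without E14 replicate 3. With the 6 arrays of E15 and E16 alone limma called 0, the smallest adjusted p being 0.0901. Of the 21390 transcripts, 1740 had an unadjusted limma p under 0.05 there, of which 55.2% were higher at E16. With E18 left out there were 2214, of which 53.6% were higher. When E15 replicate 3 was removed as well there were 3102 in the fit without E18, 37.8% of them higher. With the 5 remaining arrays alone there were 2413, 41% of them higher. All of these totals were above the share that a limit of 0.05 passes on average when no transcript differs. In each of the 3 pairs of fits, the share of higher transcripts was smaller without E15 replicate 3.

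**Figure D2:**
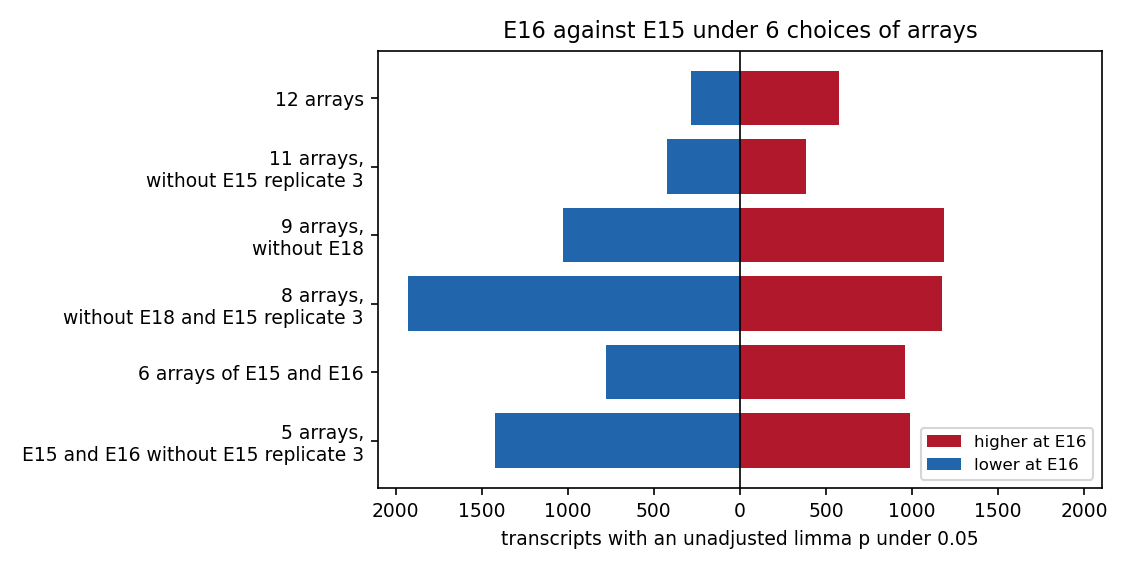
Number of transcripts with an unadjusted limma p under 0.05, those higher at E16 to the right and those lower to the left of 0, for 6 choices of arrays. In the fit of 12 arrays 573 were higher and 287 lower, and without E15 replicate 3 the numbers were 383 and 423.

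E15 replicate 3 was at least 1 log2 unit above both other E15 arrays on 1965 transcripts and at least 1 unit below both on 870. For E15 replicates 1 and 2 the numbers above were 158 and 31, and for the E16 arrays against their own stage they lay between 29 and 831, the highest for E16 replicate 1. The 1965 transcripts were dim elsewhere at E15, with a median of 6.51 on replicate 1 and 6.47 on replicate 2, against 8.77 on replicate 3. E16 replicate 1 had a median difference of 1.23 from the mean of E15 replicates 1 and 2 on these transcripts, and 60.5% of them were at least 1 unit higher there. E16 replicates 2 and 3 were close to the E15 pair, with median differences of 0.09 and 0.21. E18 replicates 2 and 3 were higher still, by 2.79 and 4.29, while E18 replicate 1 was higher by 0.49. On the 870 transcripts below on E15 replicate 3 the median differences had the opposite sign. They were -0.57 on E16 replicate 1, -0.39 on E18 replicate 1, and -1.27 and -1.65 on E18 replicates 2 and 3. Of these transcripts 19.3% were at least 1 unit lower on E16 replicate 1, and 19.9% on E18 replicate 1. E15 replicate 3 and the arrays with the largest such differences, E16 replicate 1 and E18 replicates 2 and 3, had the lowest SD of their values. Higher values on dim transcripts lower the SD of an array, so these measures are not independent. Of the 1965 transcripts 3 (0.153%) had an unadjusted limma p under 0.05 between E15 and E16, and of the 870 there were 25 (2.87%), against 4.02% of all transcripts. These sets were chosen for a gap within E15, which widens their spread, so nothing is read from these counts. The part of embryo age, tissue makeup or RNA quality in the values of this array was not tested.

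**Figure D3:**
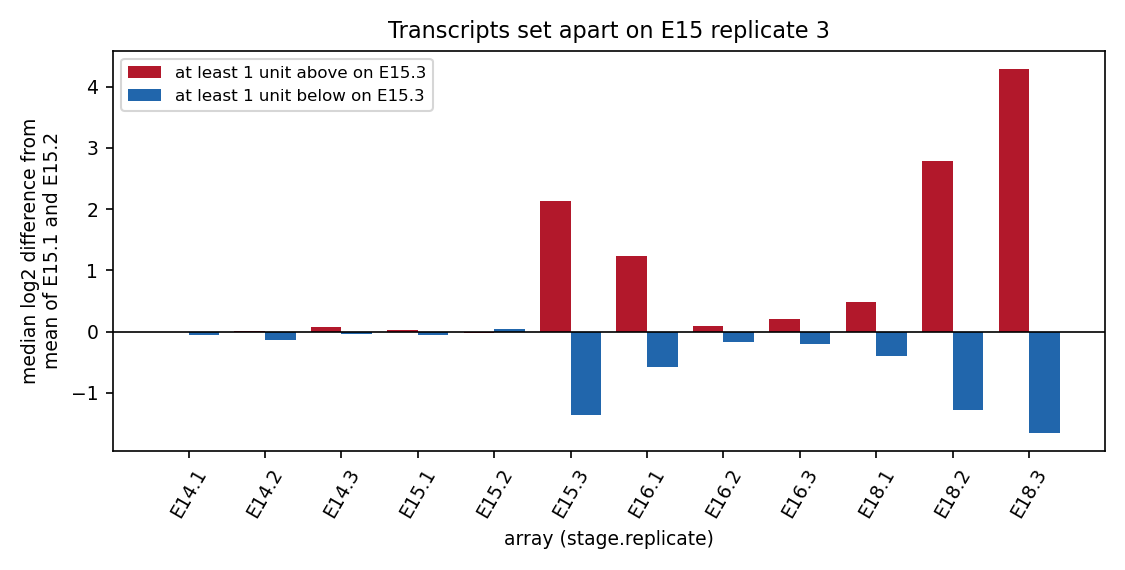
Median log2 difference of each of the 12 arrays from the mean of E15 replicates 1 and 2, for the 1965 transcripts at least 1 unit above (red) and the 870 at least 1 unit below (blue) both of them on E15 replicate 3. The bars of E15 replicate 3 follow from the choice of the transcripts; E16 replicate 1 and E18 replicates 2 and 3 show the same signs at 1.23, 2.79 and 4.29 in red.

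The effect of this array differed with the level of the transcripts. On the 7130 dimmest transcripts by mean over the 12 arrays, E15 replicate 3 lay above the other E15 arrays by a median of 0.125 log2 units, and on the 7130 of middle level its median difference from them was -0.248. The median difference between E16 and E15 was accordingly -0.084 for the dim transcripts with all arrays and -0.004 without E15 replicate 3. For those of middle level it went from 0.018 to -0.062, and for the 7130 brightest from -0.010 to -0.033. Among the dim transcripts 96 were higher and 64 lower at an unadjusted limma p under 0.05 with all arrays, and 63 and 161 without E15 replicate 3. Among the brightest, 214 were higher and 93 lower with all arrays and 143 and 88 without it. In the middle class the numbers went from 263 and 130 to 177 and 174. Without that array, lower transcripts outnumbered higher ones in the dim class alone.

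**Figure D4:**
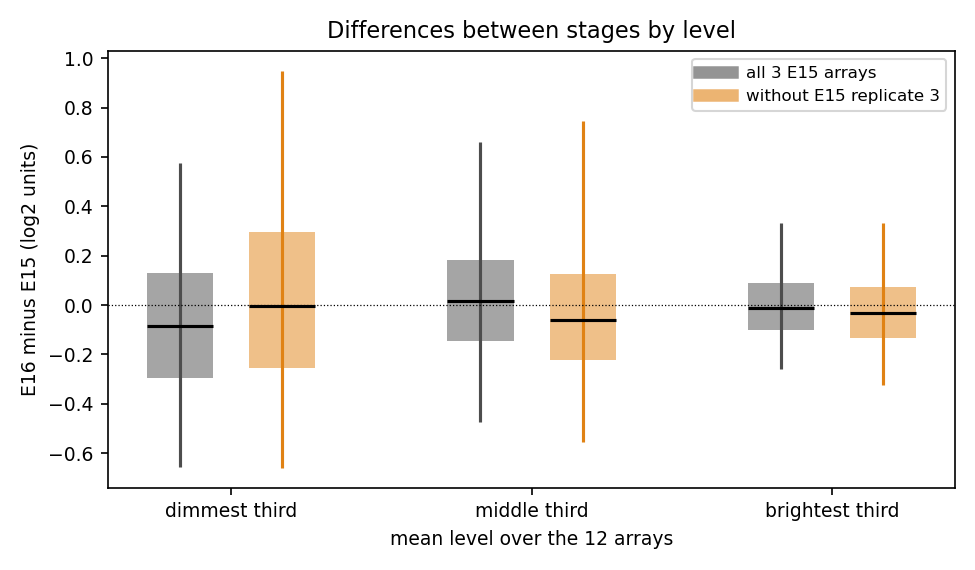
Difference of the stage means, E16 minus E15, in log2 units, for 3 classes of 7130 transcripts by mean level over the 12 arrays, with all 3 E15 arrays (grey) and without E15 replicate 3 (orange). Black lines are medians, boxes quartiles and vertical lines run from the 5th to the 95th percentile; the median of the dimmest class moves from -0.084 to -0.004.

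Each array was also set against transcripts that were chosen without it. With 1 of the 6 arrays left out, transcripts were taken whose remaining arrays did not overlap between the stages and whose means differed by at least 1 unit, and the left-out array was placed between the means of both stages. E16 replicate 2 fell nearer to its own stage on 87.5% of 168 transcripts higher at E16 and on 88.4% of 86 lower ones. E15 replicates 1 and 2 did so on 67.6% of 250 and 74.3% of 214 higher ones. E15 replicate 3 was nearer to its own stage on 37.2% of 347 higher transcripts and on 48.7% of 150 lower ones. Among the other 5 arrays the lowest share for higher transcripts was 58.8%, for E16 replicate 3, and for lower ones 42.3%, for E16 replicate 1. On the higher transcripts, E15 replicate 3 was the only 1 of the 6 arrays nearer to the opposite stage on most of them.

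With all 6 arrays, 157 transcripts were higher at E16 with arrays that did not overlap and means at least 1 unit apart (0.734% of all), and 76 were lower (0.355%). Without E15 replicate 3 the numbers were 347 (1.62%) and 150 (0.701%), and 119 and 71 transcripts were shared with the sets of all arrays. That requirement is easier to meet with 2 arrays at E15 than with 3. Without E16 replicate 1 it was 155 higher and 168 lower, so that most were then lower, and without E16 replicate 3 it was 260 and 143. The medians of the 157 higher transcripts were between 8.77 and 9.38 on the E15 arrays and between 10.37 and 10.66 on the E16 arrays, as fixed by the choice. The 76 lower ones had medians between 9.53 and 9.54 at E15 and between 7.97 and 8.27 at E16.

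The arrays of E14 and E18, which took no part in choosing these transcripts, showed where the levels lay before and after. Of the 157 higher transcripts, 148 had an E14 mean nearer to that of E15 than to that of E16, 143 had an E18 mean nearer to that of E16, and 136 had both. Of the 347 found without E15 replicate 3 the numbers were 264, 272 and 257. The share of all transcripts that meet these conditions was not computed. The median of the 157 was 9.02 at E14 and 10.73 at E18. The E18 arrays were all above the E14 arrays on 106 of the 157 (67.5%), where this held for 15.7% of all transcripts. They were all below on 2 (1.27%), against 28.2% of all. In a limma fit of only the 6 arrays of E14 and E18, 30 of the 157 (19.1%) were called higher at E18, against 0.519% of all transcripts, and 0 were called lower. The step between E15 and E16 thus went the same way as the difference between E14 and E18 on most of these transcripts.

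The 76 lower transcripts were followed in the same way. Their E14 mean was nearer to that of E15 on 71. Their E18 mean was nearer to that of E16 on 31, so on most of the 76 it was not. Of the 150 found without E15 replicate 3 the numbers were 143 and 89, so that most of these were nearer to E16 at E18. The median of the 76 on the E18 arrays was 7.71 on replicate 1, 8.72 on replicate 2 and 9.99 on replicate 3, the last above the E15 arrays. The E18 arrays were all below the E14 arrays on 28 of the 76 (36.8%), against 28.2% of all transcripts. They were all above on 1 (1.32%), against 15.7% of all. In the fit of E14 and E18, 7 (9.21%) were called lower at E18, against 0.468% of all, and 0 were called higher. Of the 347 higher transcripts found without E15 replicate 3, 214 (61.7%) had all E18 arrays above those of E14, against 15.7% of all transcripts, and 61 (17.6%) had them all below, against 28.2%. Of the 150 lower ones, 71 (47.3%) had all E18 arrays below, against the same 28.2%, and 2 (1.33%) all above, against 15.7%.

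**Figure D5:**
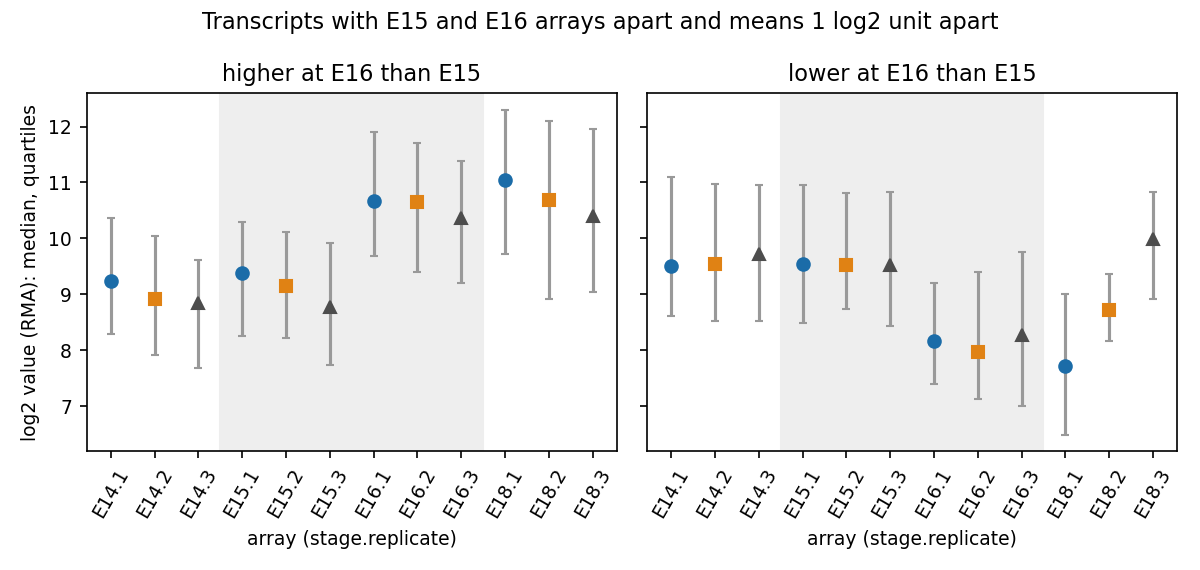
Median log2 value (points, coloured by replicate number) and quartiles (bars) on each of the 12 arrays, for the 157 transcripts higher and the 76 lower at E16 whose E15 and E16 arrays did not overlap and whose means were at least 1 unit apart. The shaded arrays were used to choose the transcripts; the E14 arrays lie with E15 in both panels, and E18 replicate 3 lies at 9.99 in the right panel, above the E15 arrays.

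A set of 25 transcripts was in 2 separate states over the series, the most frequent pattern among 64 transcripts with a gap of at least 3 log2 units between their sorted values. Their median was 6.21 and 6.26 on E15 replicates 1 and 2 and 14.05 on E15 replicate 3. At E16 it was 13.63 and 13.78 on replicates 1 and 2 and 6.25 on replicate 3. The stages were thus unequally mixed, and the median difference of these transcripts was 2.37 between the stages with all arrays and 4.95 without E15 replicate 3. With all arrays 0 of the 64 had an unadjusted limma p under 0.05, against 4.02% of all transcripts, and without E15 replicate 3 there was 1, against 3.77%. The gap by which they were chosen widens their spread, so nothing is read from these counts. The number called was the same with the 64 left out.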

How the data were processed

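Whole lungs of untreated chick embryos were profiled on NimbleGen arrays, 12 in all. Robust Multi-array Analysis was applied to the raw data by the authors, who worked in DNASTAR ArrayStar and deposited 1 log2 value per transcript and array; the version, the Ensembl release and the number of probes per transcript are not given in the sources used here. This normalization equalizes probe distributions, so shifts shared by most transcripts are not preserved.

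The deposited log2 values were used without further normalization in R 4.3.3 with limma 3.58.1, with a mean per stage fitted to 12 arrays (8 residual degrees of freedom) and a contrast of E16 minus E15, adjusted over 21390 transcripts. Figures were drawn in Python 3.11.15 with matplotlib 3.10.9. The fit was tested on simulated data in which a transcript had the same SD on every array. That simulation does not bear on the larger spread at E18 or on E15 replicate 3. The number of arrays limits the precision.

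Transcripts named are the 2 with the lowest p in each direction, since no identifier was paired with a symbol, and the marker lists were not applied. The comparison, lists and tests were chosen with earlier results of these data known. Alternatives were other sets of arrays, normalizations, variance models, thresholds and a one-way ANOVA of both stages.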

Additional observations from a re-analysis of the deposited data

How the results depend on the processing

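Leaving out E18 together with E15 replicate 3, and leaving out arrays in turn from the fit without E18, were chosen after seeing the data. The number called, 1, was 0 with only E15 and E16, 12 without E18, 0 with only E15 and E16 without E15 replicate 3, and 2 without E18 and E15 replicate 3. It was 10 after cyclic loess, 15 with array SD as a covariate, 0 at an adjusted p of at most 0.01 and 860 without adjustment. Array weights gave 463, but 1 array had a weight of 857 and the others at most 2.2. With 1 array left out the number ran from 0 to 6. A one-way ANOVA, which the methods name for the whole series, called 1 after adjustment when restricted to these stages, a different transcript at 9.39 to 9.42 at E15 and 10.50 to 10.56 at E16, and 1881 without adjustment.

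The deviations of same-numbered arrays of E15 and E16 from their stage means correlated at -0.62, 0.47 and -0.22. Deviations within a stage depend on each other, and E15 replicate 3 stood apart. Whether the replicate numbers pair the samples can thus not be decided from these values. With the replicate number as a block 6 were called, ENSGALT00000040487 among them.

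For ENSGALT00000040487 the difference was 2.17 with only E15 and E16 (adjusted p = 0.0901), 2.12 with those stages without E15 replicate 3 (0.168), 2.12 without E18 and E15 replicate 3 (0.0792) and 2.17 by the one-way ANOVA (0.177); at the threshold of 0.01 its 2.17 was not called. With 1 array left out it was 2.09 to 2.25.

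The number of transcripts at least 1 unit apart, 233, was 145 without the dimmest transcripts, 497 with only E15 and E16 without E15 replicate 3 or without E18 and E15 replicate 3, and 233 to 497 with 1 array left out. The median difference changed by less than the SD of the array medians within a stage in all 22 settings run. Settings that left out only E14 or E18 arrays could change neither it nor the 233. The cause of the changes between settings was not tested.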

Other observations

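Some transcripts were set apart on 1 array of the comparison by at least 4 log2 units, or 16-fold, from both other arrays of its stage. E15 replicate 3 was above on 241 transcripts and E15 replicate 1 on 12. E16 replicate 3 was above on 64 and below on 27, and E16 replicates 1 and 2 were above on 1 and 0. A difference between stage means can thus rest on 1 array. One transcript among the 15 largest differences with arrays that did not overlap, at 2.38, read 6.94 and 7.45 on E16 replicates 1 and 2 and 12.79 on replicate 3, against 6.46 to 6.88 at E15. Its adjusted p was 1 by limma.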
